A study of Mus musculus with 2 samples.

Results

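The stretch-response genes of the ankyrin repeat and LIM group were described in single-cell RNA sequencing of mouse satellite cells, the stem cells of skeletal muscle. The set of 9 held Ankrd1, Ankrd2, Ankrd23, Csrp3, Lmcd1, Fhl1, Mustn1, Rgcc and Klhl40, among the 32285 features counted in both libraries. The genes were chosen by symbol with their levels in these libraries already known, so the differences between the libraries given here describe the choice and carry no test.

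Ankyrin repeat proteins of the MARP family sit on titin at the I-band and Z-disc of the sarcomere and also enter the nucleus, and their transcripts are known to rise when muscle is stretched, overloaded or denervated. LIM proteins carry paired zinc fingers that bind other proteins and link actin and the Z-disc to signalling. The MARP and LIM genes of the set are therefore known mainly from muscle fibres and heart, rather than from satellite cells. This does not extend to Mustn1, Rgcc and Klhl40, which are introduced below.

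Both libraries came from tibialis anterior (TA) muscle of mice aged 8 weeks with the genotype Pax7 CreERT2/+ ;Rosa26 mTmG/+. In these mice a tamoxifen-inducible Cre under the Pax7 promoter can switch on a membrane reporter. QSC were satellite cells sorted from muscle without injury. ASC were sorted, by the study's methods, 1.5 days after an injection of cardiotoxin, which lyses fibres. Cells of several mice were pooled in each library. Each group had 1 library, so no difference below has a replicate check, and group and library cannot be told apart.

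The libraries held 516 of 766 (QSC) and 1468 of 1650 (ASC) deposited barcodes with at least 500 genes and at most 10% mitochondrial UMIs, with 1162091 and 8895815 UMIs. A UMI is a count of 1 captured transcript, and levels are UMIs per 1000000 UMIs (CPM), a scale that does not depend on transcript length. The labelled cell type held in part. Pax7, the satellite cell factor, was at 160 CPM in QSC and 18.4 CPM in ASC, but 104 QSC and 948 ASC barcodes took at least 5% of their UMIs from 10 fast fibre genes and are called fibre-high. Pax7 had 2 UMIs in the QSC and 6 UMIs in the ASC fibre-high barcodes. The other barcodes outside clusters named as another cell type are called fibre-low muscle, 370 in the QSC and 411 in the ASC library. Myod1, the factor of activated satellite cells, was there at 149 and 416 CPM. This class was not free of markers of other cells. Red cell markers summed there to 131 CPM in QSC and 1692 CPM in ASC, and smooth muscle and pericyte markers to 313 and 1227 CPM. The class included 48 ASC barcodes of cluster 1, which was led by haemoglobin genes and not named. The limit of 5% marks a range and not a cell type, and 1 QSC and 36 ASC barcodes lay between 4% and 6%. The libraries shared 2 of the kept barcodes.

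Across all kept barcodes, 8 of the 9 genes were at least 2-fold higher in the ASC library and 0 were at least 2-fold lower. Among the 11189 genes with at least 20 UMIs over both libraries, 16.0% were at least 2-fold higher and 23.0% at least 2-fold lower. Since the choice of the genes used this contrast, nothing is read from the count. Over all kept barcodes the log2 ratio of ASC over QSC ran from 2.72 (Ankrd2) to 4.41 (Mustn1) for 7 of the genes, and was 1.26 (1.14 to 1.37) for Fhl1 and 0.43 (0.35 to 0.52) for Ankrd23. Fhl1 fell short of 2-fold, at 0.90, with a mitochondrial limit of 5%, and Ankrd23 reached 1.03 with at least 1000 genes per barcode. Intervals are exact at 95% and cover counting error only. Because 64.6% of ASC barcodes and 20.2% of QSC barcodes were fibre-high, each gene is also given within the fibre-high and the fibre-low muscle barcodes. In a pooled library, more barcodes of a kind and more RNA per barcode cannot be told apart.

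Ankrd1 (ENSMUSG00000024803, GRCm38 chr19:36111961-36120099, minus strand), a MARP that binds titin and acts as a transcriptional cofactor, had the widest gap between the libraries among fibre-high barcodes. It had 12 UMIs in the 104 QSC barcodes and 6243 UMIs in the 948 ASC barcodes. The levels were 55.9 CPM (28.9 to 97.7) and 2046 CPM (1995 to 2097), a log2 ratio of 5.19 (4.39 to 6.15). Of the 12 QSC UMIs, 11 lay in 1 barcode, which held 1584 UMIs, 11 of them Csrp3 UMIs and 2 of them Rgcc UMIs. Without that barcode 1 QSC Ankrd1 UMI was left and the log2 ratio was 8.77 (6.29 to 14.07). In fibre-low muscle barcodes Ankrd1 had 70 UMIs in the QSC and 2116 in the ASC library, or 82.7 and 403 CPM, a log2 ratio of 2.28 (1.94 to 2.65).

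Ankrd1 was also the gene of the 9 with the MCAT motif, the letters CATTCC that TEAD factors are known to bind, in the 250 bases upstream of its RefSeq start. The motif was searched on both strands, and 12.6% of 32851 mouse promoters of the same length held it. The matches are shown because no other member had one. They lie at chr19:36120039-36120064 and chr19:36119952-36119977 (GRCm38.p6, minus strand), printed 5′ to 3′ along the gene with the reverse complement of CATTCC in capitals. Both stretches lie in annotated exon bases of Ankrd1, whose annotated start is 255 bases from the RefSeq start used. A match is a description of the letters and not of binding.

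Ankrd1, first MCAT match: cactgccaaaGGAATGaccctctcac

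Ankrd1, second MCAT match: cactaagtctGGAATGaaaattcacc

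Ankrd2 (ENSMUSG00000025172, chr19:42036000-42045110, plus strand), a MARP of skeletal muscle, had 102 UMIs in QSC and 5016 in ASC fibre-high barcodes. This was 476 CPM against 1644 CPM, a log2 ratio of 1.79 (1.51 to 2.09). One QSC barcode with 10167 UMIs held 13 of the 102. Among fibre-low muscle barcodes Ankrd2 was at 20.1 CPM on 17 UMIs in the QSC and at 181 CPM in the ASC library. Its upstream sequence is shown with that of Csrp3 for their E-boxes, the CANNTG letters known to be bound by Myod1 and Myog and present in 66.2% of promoters of this length. Csrp3 had 4 E-boxes, the most of the 9, and Ankrd2 and Klhl40 had 3 each. No match of 1 motif overlapped a match of another in the 9 windows. Capitals mark the E-boxes in 223 bases at chr19:42035777-42035999 (plus strand) and in 250 bases at chr7:48848052-48848301 (minus strand).

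Ankrd2: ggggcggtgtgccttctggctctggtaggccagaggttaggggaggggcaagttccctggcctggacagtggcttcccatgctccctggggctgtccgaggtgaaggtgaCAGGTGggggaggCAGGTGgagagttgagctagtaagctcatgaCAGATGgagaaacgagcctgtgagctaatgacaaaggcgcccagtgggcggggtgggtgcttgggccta

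Csrp3: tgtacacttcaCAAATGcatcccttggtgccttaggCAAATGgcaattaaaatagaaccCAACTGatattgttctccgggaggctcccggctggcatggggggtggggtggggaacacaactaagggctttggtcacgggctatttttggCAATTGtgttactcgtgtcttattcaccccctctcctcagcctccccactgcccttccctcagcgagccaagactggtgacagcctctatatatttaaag

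Ankrd23 (ENSMUSG00000067653, chr1:36530188-36536883, minus strand), the third MARP, was the member with the highest QSC level and the smallest gap. Its exons overlap Gm42417 on the same strand, which was not among the counted features, so its count is less certain. Fibre-high barcodes held 929 QSC and 10853 ASC UMIs, at 4331 CPM (4057 to 4619) and 3556 CPM (3490 to 3624). The ASC level was the lower, by a log2 ratio of -0.28 (-0.38 to -0.19). The fibre genes Acta1 and Ckm stood at -0.46 and -0.42 in the same comparison, and the median over 1214 genes with at least 20 UMIs in both libraries at -0.18, so that Ankrd23 stood at -0.11 relative to that median. In fibre-low muscle barcodes its levels were 301 and 282 CPM, and the log2 ratio of -0.10 (-0.29 to 0.10) spanned 0. Relative to the median gene there it stood at 0.17, so its sign turned with the scaling.

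Among the LIM genes, Csrp3 (ENSMUSG00000030470, chr7:48830398-48848033, minus strand), the muscle LIM protein of the Z-disc, had 113 UMIs in QSC and 12350 in ASC fibre-high barcodes. The levels of 527 and 4047 CPM gave a log2 ratio of 2.94 (2.67 to 3.22). In fibre-low muscle barcodes Csrp3 was at 30.7 CPM on 26 UMIs in the QSC and at 401 CPM in the ASC library, a log2 ratio of 3.71 (3.15 to 4.33).

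Lmcd1 (ENSMUSG00000057604, chr6:112273758-112330425, plus strand), a LIM and cysteine-rich domain protein of muscle and heart, had 51 UMIs in QSC and 4440 in ASC fibre-high barcodes, or 238 and 1455 CPM (log2 ratio 2.61, 2.22 to 3.04). It had 14 QSC UMIs and 428 ASC UMIs in fibre-low muscle barcodes, or 16.5 and 81.5 CPM. Fhl1 (ENSMUSG00000023092, chrX:56731787-56793346, plus strand), a LIM-only protein of the sarcomere that is mutated in human myopathies, had 476 and 10473 UMIs, or 2219 and 3432 CPM. Its log2 ratio of 0.63 (0.50 to 0.76) stayed below 2-fold among fibre-high barcodes, and so did that of 0.52 (0.27 to 0.77) in fibre-low muscle barcodes, on 148 and 1317 UMIs. Lmcd1 and Fhl1 were the members with a CArG box, the letters known to be bound by serum response factor, searched on both strands, which 1.47% of promoters held. The matches are in capitals, at chr6:112273533-112273562 (plus strand) for Lmcd1 and at chrX:56779571-56779600 (plus strand) for Fhl1, whose RefSeq start lies 47896 bases inside the annotated gene.

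Lmcd1: tgctccttgcCCTTTAAAGGagaagggcgt

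Fhl1: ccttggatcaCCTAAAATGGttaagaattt

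Mustn1 (ENSMUSG00000042485, chr14:30879200-30881610, plus strand), a small nuclear protein of muscle and skeleton, was the most abundant member in the ASC library. It had 108 UMIs in QSC and 21529 in ASC fibre-high barcodes, and its level of 504 CPM in QSC stood against 7055 CPM in ASC, a log2 ratio of 3.81 (3.54 to 4.09). In fibre-low muscle barcodes it was at 34.3 CPM on 29 UMIs and at 638 CPM, a log2 ratio of 4.22 (3.69 to 4.80). Rgcc (ENSMUSG00000022018, chr14:79288756-79301645, minus strand), a regulator of the cell cycle that responds to complement, had 13 QSC and 3698 ASC UMIs in fibre-high barcodes. Its levels were 60.6 and 1212 CPM, a log2 ratio of 4.32 (3.55 to 5.23). Rgcc in fibre-low muscle barcodes stayed below 2-fold, at 37.8 CPM on 32 UMIs and 72.7 CPM on 382 UMIs (log2 ratio 0.94, 0.42 to 1.51). It was past 2-fold, at 1.04, without the 1% of barcodes with the most UMIs.

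Klhl40 (ENSMUSG00000074001, chr9:121777607-121783818, plus strand), a kelch protein that stabilises thin filament proteins, was the least abundant member in ASC fibre-high barcodes. It had 14 QSC UMIs at 65.3 CPM and 2052 ASC UMIs at 672 CPM, a log2 ratio of 3.36 (2.61 to 4.24). Fibre-low muscle barcodes held 5 QSC UMIs and 200 ASC UMIs, or 5.91 and 38.1 CPM. It overlaps exons of Gm47108 on the opposite strand, which was not counted. Klhl40 was also the member with an AP-1 match (TGANTCA), found in 6.75% of promoters. None of the 9 windows held the MEF2 letters that were searched by name, against 2.92% of promoters, and E-boxes stood in 6 of 9. Like that of Ankrd1, the windows of Ankrd23 and Klhl40 lay wholly in annotated exon bases. The RefSeq start used for Ankrd23 was 327 bases from its annotated start.

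Within fibre-high barcodes, 7 of the 9 genes were at least 2-fold higher in the ASC library and 0 lower, beside 18.8% higher and 8.99% lower among 6466 genes. Within fibre-low muscle barcodes 6 were higher and 0 lower, beside 18.6% and 22.5% of 9953 genes. In QSC fibre-high barcodes the order ran from Ankrd23 and Fhl1 down to Csrp3, Mustn1 and Ankrd2, whose intervals overlapped, then Lmcd1, and last Klhl40, Rgcc and Ankrd1, whose intervals overlapped too. In ASC fibre-high barcodes it ran Mustn1, Csrp3, Ankrd23, Fhl1, Ankrd1, Ankrd2, Lmcd1, Rgcc and Klhl40, and among neighbours the intervals of Ankrd23 and Fhl1 (3366 to 3498 CPM) overlapped. Ankrd1 was last of the 9 in QSC fibre-high barcodes, a place that rests on 12 UMIs, and had 4 members above it in ASC fibre-high barcodes.

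**Figure D1:**
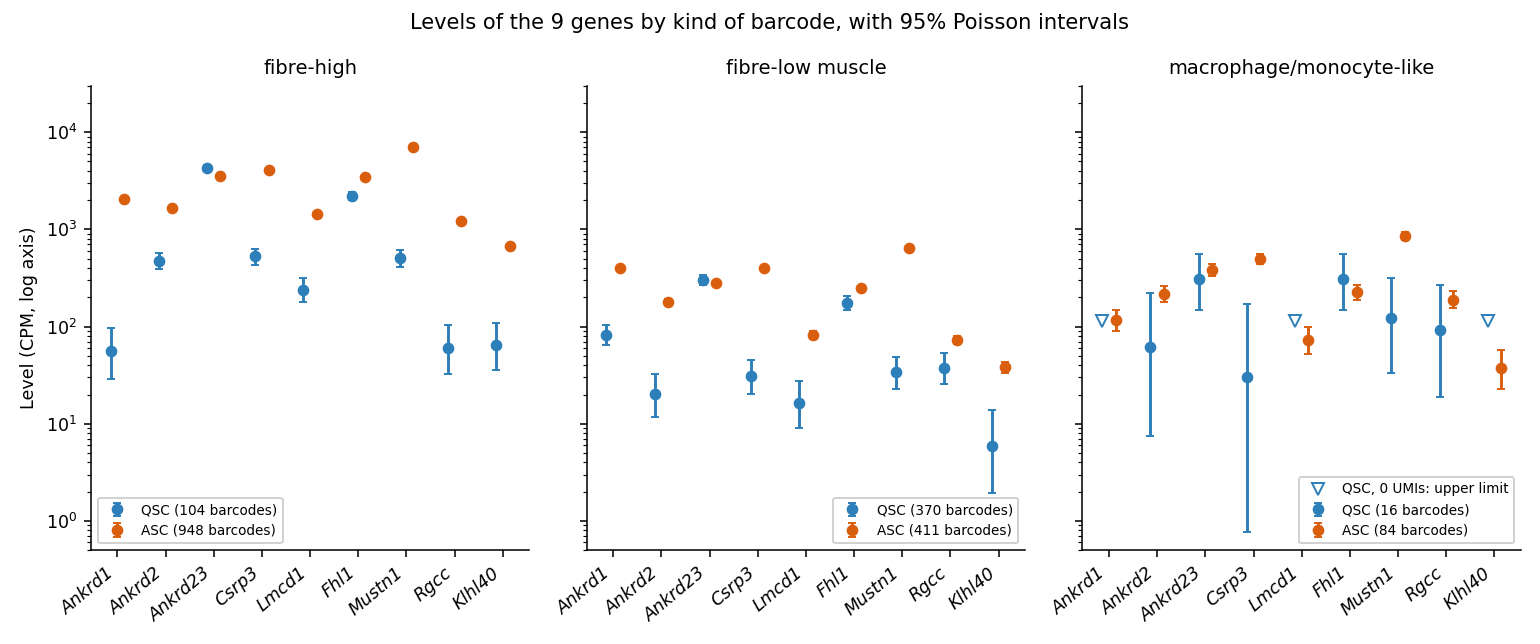
Level of each gene in CPM (log axis) in QSC and ASC barcodes of 3 kinds, fibre-high, fibre-low muscle and macrophage/monocyte-like, with 1 library per group. Points are sums over barcodes, bars are exact 95% Poisson intervals of counting error, and a count of 0 is drawn at its limit. Ankrd23 lies at 4331 CPM in QSC and 3556 CPM in ASC fibre-high barcodes, while Ankrd1 lies at 55.9 and 2046 CPM.

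**Figure D2:**
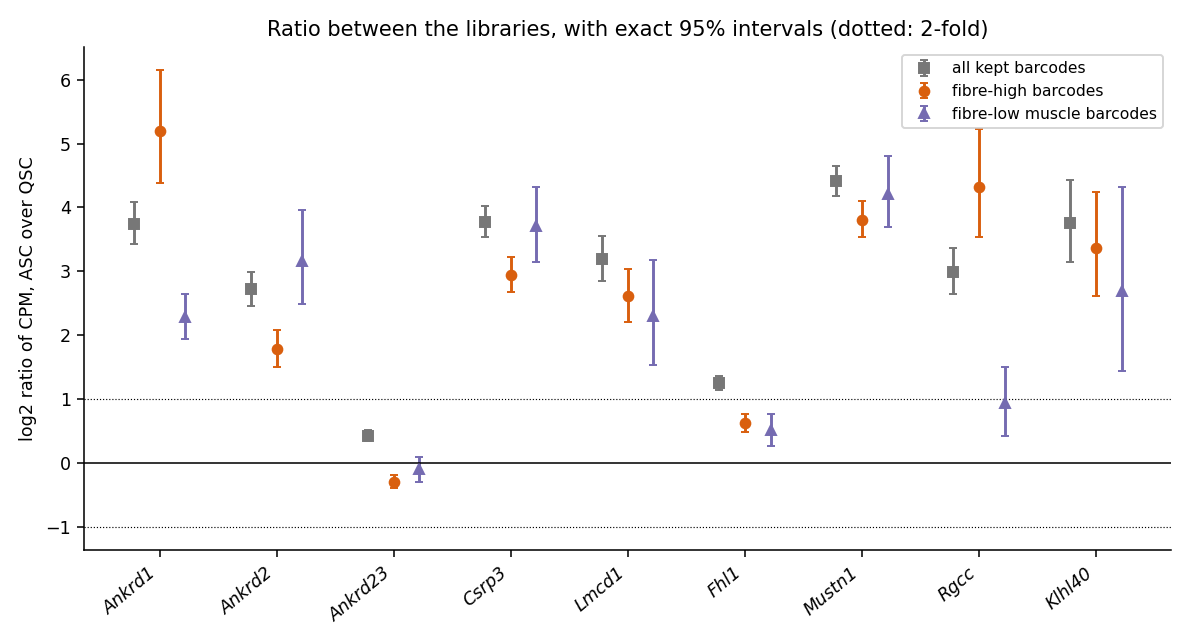
Log2 ratio of ASC over QSC for the 9 genes, over all kept, fibre-high and fibre-low muscle barcodes, with exact 95% intervals of counting error. Ankrd1 is furthest from 0 among fibre-high barcodes (5.19) and Mustn1 among fibre-low muscle barcodes (4.22), and Ankrd23 is the closest to 0 of the 9 genes in each.

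Shares of barcodes with a UMI differed for the same genes. To set depth equal, each barcode was thinned to 1200 UMIs, which left 90 QSC and 861 ASC fibre-high barcodes and left out 14 and 87. Ankrd1 had a UMI in 1.11% (0.0281 to 6.04) of QSC and 45.3% (41.9 to 48.7) of ASC barcodes, and unthinned in 1.92% and 58.3%. Mustn1 had a UMI in 34.4% and 94.4%, Csrp3 in 25.6% and 68.2%, and Rgcc in 6.67% and 49.2%. Ankrd23 was found in 98.9% and 89.3%, and unthinned in 104 of 104 QSC barcodes. In 82 ASC macrophage/monocyte-like barcodes, the thinned share was 13.4% for Ankrd1, 63.4% for Mustn1, 42.7% for Csrp3 and 43.9% for Ankrd23, which these cells should lack. It was 14.6% for Rgcc, which is not taken as absent from them. In QSC macrophage/monocyte-like barcodes, 2 of 12 (16.7%, 2.09 to 48.4) had an Rgcc UMI. Median depths before thinning were 1635 and 2024.5 UMIs in these QSC classes, and 2666.5 UMIs in ASC fibre-high and 6322 UMIs in macrophage/monocyte-like barcodes. Of the 9 genes, the median number with a UMI was 3 in a QSC and 6 in an ASC fibre-high barcode. At least 6 genes were present in 7 of 90 QSC barcodes (7.78%) and 490 of 861 ASC barcodes (56.9%), and all 9 in 72 ASC barcodes.

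**Figure D3:**
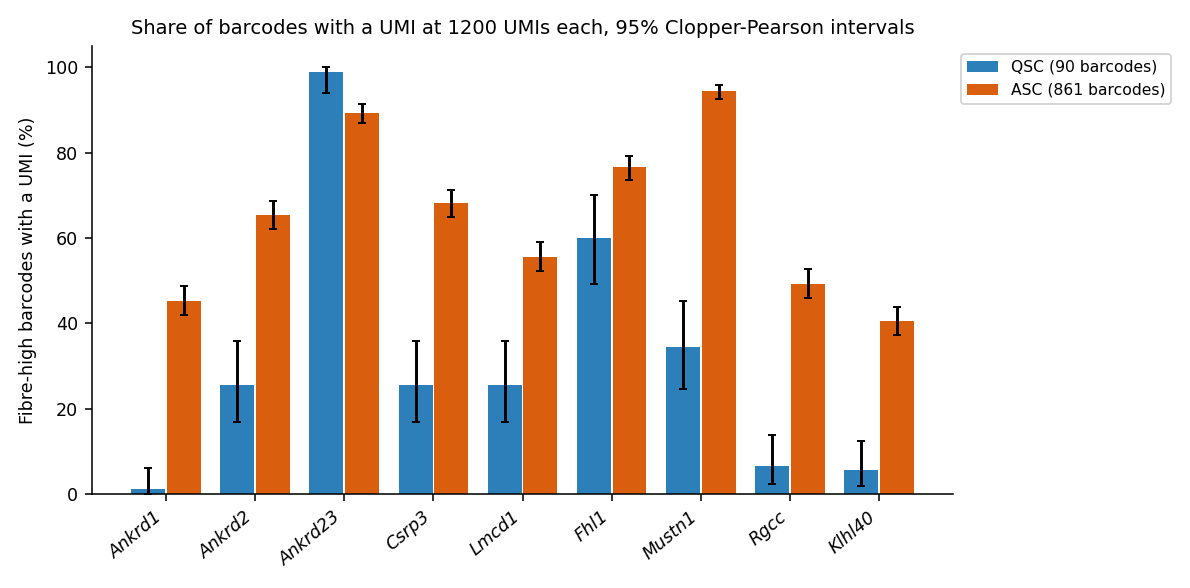
Share of fibre-high barcodes with at least 1 UMI of each gene after thinning to 1200 UMIs, in 90 QSC and 861 ASC barcodes, with exact 95% binomial intervals. Ankrd1 goes from 1.11% to 45.3%, and Ankrd23 from 98.9% to 89.3%.

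The genes differed in how unevenly they lay among ASC fibre-high barcodes. After thinning, the 10% of barcodes richest in a gene held 67.6% of the UMIs of Ankrd1 and 58.9% of those of Csrp3, against 33.1% for Mustn1 and 28.3% for Ankrd23. The median barcode had 0 Ankrd1 UMIs and the highest had 58. Over the 861 barcodes, Ankrd1 had a Pearson r of 0.40 with Rgcc, 0.39 with Lmcd1, 0.38 with Klhl40 and 0.37 with Csrp3, and -0.20 with Ankrd23. All 8 pairs with Ankrd23 were negative, from -0.07 with Ankrd2 and -0.09 with Rgcc down to -0.36 with Mustn1. Without thinning, the pairs of Ankrd23 with Ankrd2 and Rgcc stood at -0.0004 and -0.01. These values are across barcodes of 1 library that share depth and free RNA, and are a description. In the 390 barcodes with an Ankrd1 UMI, Csrp3 was at 7171 CPM, Rgcc at 1991 CPM and Ankrd23 at 3056 CPM. In the 471 barcodes without one, they were at 2052, 623 and 3624 CPM.

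The clusters of the ASC fibre-high barcodes were made with the 9 genes left out. Cluster 3 (248 barcodes), led by Mybph, a myosin-binding protein of fibres, had the highest levels of 6 of the 9. Ankrd1 was there at 5764 CPM (5603 to 5929), against 522 to 1122 CPM in the other fibre-high clusters. Csrp3 was at 8827 CPM, Rgcc at 2899 CPM and Klhl40 at 1485 CPM in cluster 3, and Mustn1 at 12269 CPM. The highest level of Ankrd23, 5276 CPM, was in cluster 6, where 1 barcode with 76126 UMIs held 683 of its UMIs, and the next, 4562 CPM, was in cluster 0 (349 barcodes). In cluster 3 Ankrd23 was at 2466 CPM. Ankrd2 and Fhl1 were highest in cluster 5 (87 ASC barcodes), at 3415 and 7013 CPM. This split depends on the resolution. At 0.3 in place of 0.6, the largest cluster took 790 ASC fibre-high barcodes and had Ankrd1 at 2293 CPM, Mustn1 at 7764 CPM, Rgcc at 1403 CPM and Klhl40 at 739 CPM, still the highest for these genes. Csrp3 (7111 against 3974 CPM) and Lmcd1 (1812 against 1490 CPM) were then highest in a cluster of 85 barcodes.

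Cluster 5 also held 100 of the 104 QSC fibre-high barcodes, so the QSC and most ASC fibre-high barcodes lay in different clusters. Its ASC barcodes had the slow fibre genes at 6721 CPM and its QSC barcodes at 247 CPM. Within cluster 5 alone the ASC over QSC log2 ratios were 4.40 for Ankrd1, 3.85 for Csrp3, 3.10 for Mustn1, 1.89 for Rgcc and -0.40 for Ankrd23. Fhl1 there stood at 1.73, past 2-fold. Whether the slow fibre genes bear on these ratios was not tested.

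**Figure D4:**
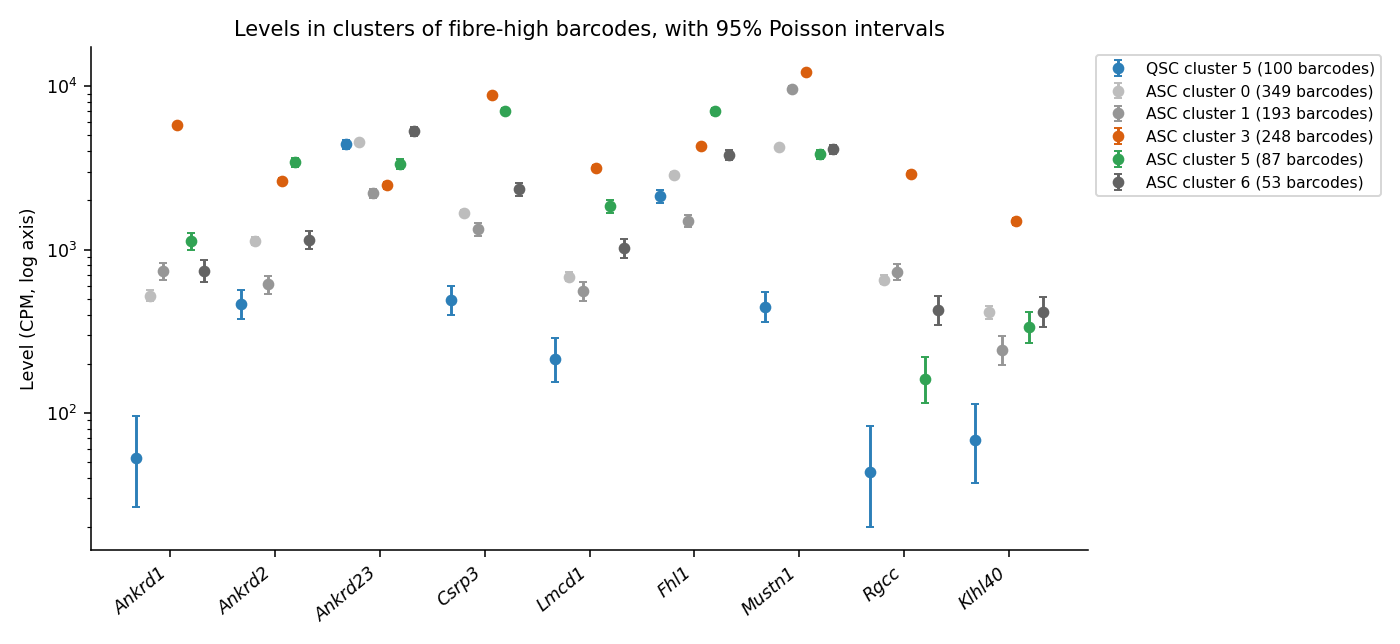
Level of each gene in CPM (log axis) in the fibre-high barcodes of QSC cluster 5 and of ASC clusters 0, 1, 3, 5 and 6, with exact 95% Poisson intervals of counting error. Ankrd1 reaches 5764 CPM in ASC cluster 3 and lies at 53.3 CPM in QSC cluster 5, while Ankrd23 spans 2209 to 5276 CPM over the ASC clusters.

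Levels also varied with how much of a barcode was fibre transcript. Split in 4 equal sets by fast fibre share, with medians of 10.1%, 13.2%, 15.2% and 18.6%, ASC fibre-high barcodes had Ankrd1 at 3537, 2852, 1522 and 1020 CPM. Mustn1 went the same way, from 10912 to 3414 CPM, and Ankrd23 the other way, at 1682, 2902, 4201 and 4629 CPM. Csrp3 was at 4777, 5897, 4554 and 1969 CPM. The fast fibre share is part of the total that each level is divided by. None of the 9 had a steady order over 4 sets by UMI number. Over 4 sets by mitochondrial share, Ankrd23 went from 3958 to 3038 CPM and Fhl1 from 3591 to 3160 CPM in steady order, and the other 7 did not. In the first of these sets 1 barcode held 683 of 3407 Ankrd23 UMIs and 306 of 3091 Fhl1 UMIs. With equal weight for each barcode neither gene kept a steady order. Ankrd23 was then at 3543, 3462, 3524 and 3231 CPM, and Fhl1 at 3462, 3447, 3232 and 3375 CPM.

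Free RNA of broken fibres can give UMIs in barcodes of other cells, so each gene was also set beside the fast fibre genes. Within the ASC library all 9 genes were at least 2-fold higher in fibre-high than in fibre-low muscle barcodes, beside 15.8% of genes higher and 44.3% lower. Per 1000 fast fibre UMIs, Mustn1 stood at 33.7 in fibre-low muscle and 35.0 in macrophage/monocyte-like barcodes, Csrp3 at 21.2 and 20.6, and Ankrd23 at 14.9 and 15.9. For these, cells that should lack the genes had a like amount per fibre transcript as the ASC fibre-low muscle barcodes. Whether free RNA gave the ASC fibre-low muscle level was not tested. Their ASC over QSC ratios in fibre-low muscle barcodes carry that limit. The same limit applies to Ankrd2, at 9.55 in fibre-low muscle and 8.90 in macrophage/monocyte-like barcodes. Rgcc was at 3.84 (3.46 to 4.24) in fibre-low muscle, 7.81 (6.36 to 9.49) in macrophage/monocyte-like and 8.18 in fibre-high barcodes, and since other cell types of these libraries held Rgcc too, the macrophage/monocyte-like level is not used as its background. Ankrd1 differed, at 21.3 per 1000 in fibre-low muscle, 13.8 in fibre-high and 4.80 in macrophage/monocyte-like barcodes. Fhl1 stood at 13.2 in fibre-low muscle against 9.28 in macrophage/monocyte-like barcodes, and its intervals did not overlap. In the same classes Lmcd1 stood at 4.30 (3.90 to 4.73) against 3.02 (2.15 to 4.12). Klhl40 stood there at 2.01 (1.74 to 2.31) against 1.55 (0.94 to 2.39). For Lmcd1 and Klhl40 the intervals overlapped, so their fibre-low muscle ratios carry the free RNA limit too.

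**Figure D5:**
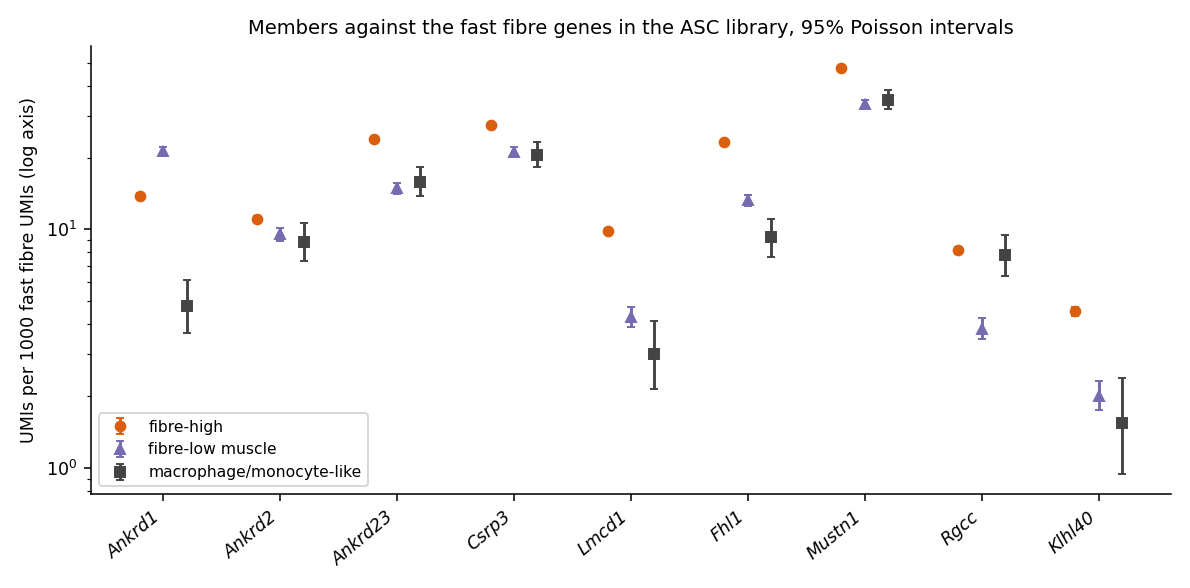
UMIs of each gene per 1000 UMIs of the 10 fast fibre genes (log axis) in fibre-high, fibre-low muscle and macrophage/monocyte-like barcodes of the ASC library, with exact 95% intervals of counting error. Ankrd1 stands at 21.3 in fibre-low muscle and 4.80 in macrophage/monocyte-like barcodes, while Mustn1 stands at 33.7 and 35.0.

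Ankrd1 in fibre-low muscle barcodes was spread over 240 of 411 ASC barcodes and 25 of 370 QSC barcodes. After thinning, 21.4% of 406 ASC fibre-low muscle barcodes had a UMI, against 13.4% (6.89 to 22.7) of 82 macrophage/monocyte-like barcodes, at median depths of 8482 and 6322 UMIs before thinning. It stood at 236 CPM in cluster 4, which held 225 of the 411 ASC barcodes, at 486 CPM in cluster 6 and at 454 CPM in cluster 1. The level of 2478 CPM in cluster 2 rests on 2 of 10 barcodes. The lowest level of these clusters, 79.5 CPM, was in cluster 8, which held the most Myog, the factor of differentiating muscle cells. In the QSC library Ankrd1 was at 85.1 CPM in cluster 2 (239 barcodes, quiescent-like) on 49 UMIs, of which 11 were in 1 barcode. In QSC cluster 4 (17 fibre-low barcodes) it was at 359 CPM (209 to 575) on 17 UMIs, of which 10 were in 1 barcode. The 59 QSC fibre-low barcodes of cluster 6 had 0 UMIs of it. Per 1000 fast fibre UMIs the QSC values were 4.995 in fibre-low muscle and 0.31 in fibre-high barcodes, and 0 UMIs stood beside 683 fast fibre UMIs in QSC macrophage/monocyte-like barcodes, which allows up to 5.40.

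Genes of related pathways are given for fibre-high barcodes by the count at least 2-fold higher or lower, beside 18.8% higher, 8.99% lower and a median log2 ratio of 0.10 over all 6466 tested genes. Of 14 genes for sarcomere repair and chaperone-assisted turnover, 8 were higher and 0 lower, with a median of 1.08. Hspb1, a small heat shock protein, stood at 4.10 (3.78 to 4.45), the filamin-binding Xirp1 at 3.31 (1.45 to 6.37) on 2 QSC UMIs, the actin cross-linker Flnc at 3.46 (0.96 to 8.78) on 1 QSC UMI and the ubiquitin ligase Stub1 at 0.11. Of 20 titin and Z-disc partners, 2 were higher and 4 lower, with a median of -0.20, and Pdlim3 stood at 2.14, Neb (nebulin) at -2.46, Tcap (telethonin) at -1.82 and Ttn (titin) at -1.35. Titin and nebulin are giant filament proteins of the sarcomere, and telethonin caps titin at the Z-disc.

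Of 9 tested genes of the YAP and TEAD pathway, 4 were higher and 0 lower, with a median of 0.49, but Tead4 at 2.00 (-0.53 to 7.33) rests on 1 QSC UMI, Yap1 at 1.96 (0.08 to 5.03) on 2, and Wwtr1 has 0 QSC UMIs and is counted through the floor of 3. The list went the other way elsewhere, with 3 of 17 higher, 7 lower and a median of -0.54 over all kept barcodes, and 2 of 17 higher, 6 lower and a median of -0.39 in fibre-low muscle barcodes. The cofactor Vgll2 stood at 1.44 (0.77 to 2.21) and the target Ccn1 at -0.90 (-1.97 to 0.38). Of 9 genes of the SRF and MRTF pathway, 3 were higher and 0 lower, with a median of 0.95, and of the 3, Acta2 at 2.53 (0.97 to 4.82) and Actc1 at 2.47 (0.90 to 4.75) rest on 3 QSC UMIs each. Abra, an actin-binding activator of that pathway, stood at 2.13 (1.47 to 2.89) and Mrtfb at 0.02. The relatives of the 9 genes went apart, since Fhl3 was lower at -1.70 (-2.17 to -1.21), Klhl31 stood at -0.66 and Limd1 at 2.32 (0.44 to 5.38) on 2 QSC UMIs, and Csrp2 had 0 UMIs in QSC and 26 in ASC fibre-high barcodes.

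Over the 861 thinned barcodes, the genes most like Ankrd1 among 1699 were Hspb1 (r 0.54), Cryab (0.53), Atf3 (0.41), Rgcc (0.40) and Lmcd1 (0.39). Those most like Csrp3 were Cryab (0.57), Lmcd1 (0.46), Ankrd2 (0.44), Fhl1 (0.44) and Hspb1 (0.39). Those most like Ankrd2 were Cryab (0.45), Csrp3 (0.44), Hspb1 (0.41), Fhl1 (0.40) and Lmcd1 (0.39). Cryab and Hspb1, chaperones of the Z-disc, stand in each of these, and Atf3 is a stress-response factor.

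Markers of other cells differed between the libraries in fibre-high barcodes. The 8 markers of activated satellite cells summed to 3 UMIs in QSC, all of Myod1, and to 1064 UMIs (349 CPM) in ASC, with 8 of 8 detected. Myod1 had 516 UMIs in 34.0% of ASC fibre-high barcodes, and Myog had 0 UMIs in QSC and 449 UMIs in 23.5% of ASC barcodes. The 12 macrophage/monocyte markers summed to 97.9 CPM in QSC and 280 CPM in ASC, with 6 and 12 of the 12 detected, and the 7 fibroblast markers to 112 and 20.3 CPM. Tenocyte markers summed to 37.3 and 108 CPM, smooth muscle and pericyte markers to 23.3 and 83.6 CPM, neutrophil markers to 28.0 and 66.2 CPM, and endothelial markers to 32.6 and 11.5 CPM. Their part in the values above was not tested.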

How the data were processed

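Sorted QSC and ASC were profiled with droplet-based 3′ chemistry, 1 library per group. The deposited counts are whole UMIs per gene and barcode that the authors made with Cell Ranger; the file headers give release 6.0.2, and the submitters' processing notes give Cell Ranger 7.1.0, Seurat 4.1.0, R 4.1.2 and mm10. The annotation and the use of strand are not given in the sources used here. Of 32285 features, 99.8% were in GENCODE M21, which gave coordinates on GRCm38, 1-based. Promoters are from RefSeq on GRCm38.p6, and all 9 genes matched.

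Barcodes with at least 500 genes and at most 10% mitochondrial UMIs were kept, and UMIs were summed per library and class. No test was run, since each group has 1 library. Levels are CPM with exact Poisson intervals, ratios have exact conditional binomial intervals and shares Clopper-Pearson intervals, all at 95%. A count of 0 was set to 3 counts, per library, for a ratio. PCR and free RNA are not in these intervals. Genes with at least 20 UMIs over both groups were counted, and genes past 2-fold were those with a log2 ratio past 1.

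Clusters were made in R 4.3.3 with Seurat 5.3.0 on both libraries merged at resolution 0.6, with the 9 genes left out of the variable genes, and named from marker lists. Doublets were not removed. Thinning was to 1200 UMIs. The ratio and interval code was tested on simulated data. The 9 genes are named whatever their values, of each list the 3 highest and 3 lowest genes could be named, and the 5 genes most like Ankrd1, Csrp3 and Ankrd2 were named among genes with at least 200 UMIs. Limd1 and Wwtr1 were named outside the rule, after their values were seen. The genes and lists were chosen with earlier results of these data known.

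Other settings were tried: filters, TMM factors of edgeR 4.0.16, scaling without fibre and mitochondrial genes, the fibre limit, depth, and resolution 0.3. Equal weight for each barcode, cluster 5 alone and leaving out 1 QSC barcode were added after seeing the data.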

Additional observations from a re-analysis of the deposited data

Results flagged for a closer look

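The ratio of Ankrd1 in fibre-high over fibre-low muscle barcodes was positive in the ASC library and negative, with no direction established, in the QSC library. In the ASC library the log2 ratio was 2.34 (2.27 to 2.42), with 2046 and 403 CPM. In the QSC library it was -0.56 (-1.58 to 0.33), with 55.9 and 82.7 CPM. The difference between the ratios was 2.91 on the log2 scale and was not tested, since each group has 1 library. The QSC interval spans 0 and rests on 12 UMIs in fibre-high and 70 in fibre-low muscle barcodes, and 11 of the 12 were in 1 barcode. With equal weight for each barcode the QSC levels were 72.7 CPM in fibre-high and 69.3 CPM in fibre-low muscle barcodes, which turns the sign. For comparison, the other members but Rgcc were higher in QSC fibre-high barcodes by 3.47 (Klhl40) to 4.57 (Ankrd2), and Rgcc stood at 0.68 (-0.37 to 1.65).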

How the results depend on the processing

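No paired analysis was possible because each group has 1 library, and no library could be left out. Of 270 log2 ratios of the genes under other settings, 181 moved by less than their counting interval, 86 moved further and 3 changed sign, all of Ankrd23. With the study's limit of 1% mitochondrial UMIs, which keeps 86 QSC and 948 ASC barcodes, Ankrd23 over all barcodes was -0.50 in place of 0.43. In fibre-low muscle barcodes it was 0.13 with a fast fibre limit of 10% and 0.22 with equal weight for each barcode, in place of -0.10, an interval that spans 0. The r of Fhl1 and Rgcc was -0.00299 with the 10% limit in place of 0.03. The number of genes past 2-fold higher was 7 to 9 over all, 7 to 8 in fibre-high and 6 to 7 in fibre-low muscle barcodes, and 0 were lower. The changes were in Fhl1, which was 0.64 to 0.94 over all barcodes under both mitochondrial limits and with all deposited barcodes, in Ankrd23, which was 1.03 with at least 1000 genes and 1.01 with equal weight, in Fhl1 of cluster 5, at 1.73, and in Rgcc of fibre-low muscle barcodes, which was 1.04 without the barcodes with the most UMIs, 2.02 with the 10% limit and 1.25 with equal weight. Among fibre-high barcodes the log2 ratio ranged from 4.40 to 8.77 for Ankrd1, 2.85 to 3.85 for Csrp3, 3.10 to 3.92 for Mustn1, 1.89 to 4.75 for Rgcc and -0.41 to -0.18 for Ankrd23. At resolution 0.3 the highest cluster level among ASC fibre-high barcodes moved for 6 of the 9 genes. TMM factors of 0.898 (ASC) and 1.113 (QSC) left Ankrd1 over all barcodes at 4.06 in place of 3.75. The QSC library limits most values, with 12 Ankrd1, 13 Rgcc and 14 Klhl40 UMIs among fibre-high barcodes. The cause of these shifts was not tested.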

Other observations

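Rgcc had its highest QSC level outside muscle, at 1815 CPM on 20 UMIs in 9 endothelial-like barcodes, 10 of them in 1 barcode. In the ASC library it was at 990 CPM (690 to 1377) in 19 neutrophil-like barcodes. In ASC fibre-low muscle barcodes of cluster 2, all 249 Ankrd1 UMIs lay in 2 of 10 barcodes, of which 1 held 129. Ankrd23, which the rule for likeness did not cover and which was added after its values were seen, was most like Tpm1 (r 0.40), Tnnc2 (0.35) and Pgam2 (0.33), genes of thin filaments and glycolysis in fast fibres.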
